A study of Mus musculus with 6 samples.

Results

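The TGF-beta and BMP signalling genes described here are 72 protein-coding mouse genes of 53465 genes in the table, chosen by their names. The name rule used no values, but was set with earlier results of these data known. It takes in the TGF-beta, BMP, GDF, activin and inhibin ligands, their receptors, the SMAD proteins and SMURF ligases. Latent TGF-beta binding proteins, extracellular antagonists, and the nuclear ID and TGIF proteins are members as well. All members were measured by RNA sequencing in male C57BL/6J mice, from which the right hippocampus was taken. In the tMCAO group (3 libraries) a coated filament passed through the right internal carotid artery closed the middle cerebral artery for 50 min and was then withdrawn, and the Sham group (3 libraries) is given in the labels by that name only. All mice were perfused with saline before dissection, and oligo-dT beads were used to select poly(A) RNA for every library. Age, the time of reperfusion and whether each library is a separate animal are not given in the labels, so a p-value here speaks of the spread among these libraries, which may be technical.

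Ligands of this superfamily are secreted as dimers that bring type I and type II receptor kinases together. TGF-beta is secreted in a latent complex, held in the matrix by latent TGF-beta binding proteins, and has to be released before it can bind. The receptors phosphorylate SMAD2 and SMAD3 for TGF-beta and activin or SMAD1, SMAD5 and SMAD9 for BMPs. These SMADs join SMAD4 and act in the nucleus, where the ID genes are well-known BMP targets. SMAD6, SMAD7 and the SMURF ubiquitin ligases restrain the pathway inside the cell, while noggin and follistatin trap ligands outside it. In the brain, TGF-beta1 is known as a signal from and to microglia, and BMP signals and their antagonists are known for setting astrocyte fate and for controlling neural stem cells of the hippocampus.

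Expression is given in FPKM, a level per gene length and library depth, as the authors deposited it. A gene was called changed where the Benjamini-Hochberg adjusted p of limma on log2(FPKM + 1) was below 0.05, and log2 fold changes are tMCAO over Sham on that scale, on which a low gene's change comes out too small. Recovered reads assigned to genes numbered 57774583 to 66130196 in the tMCAO libraries and 39011689 to 46259705 in the Sham libraries, so each tMCAO library was the deeper. tMCAO 3 and Sham 2 stood apart in markers of other tissue. The summed FPKM of 12 striatal neuron markers was 121, 82.3 and 552 in tMCAO 1, 2 and 3, against 138, 668 and 163 in Sham 1, 2 and 3. Choroid plexus markers (12 genes) summed to 677, 403 and 45.2 FPKM in the tMCAO libraries and to 760, 66.2 and 852 FPKM in the Sham libraries. Hippocampal neuron markers summed to 105 to 136 FPKM in tMCAO and 109 to 136 FPKM in Sham, but Wfs1, Neurod6 and Bok make up most of this sum and other genes of the list were low in tMCAO 3 and Sham 2. Prox1, a marker of dentate granule cells, had 6.08, 5.82 and 1.75 FPKM in tMCAO 1, 2 and 3, against 6.21, 2.09 and 6.43 FPKM in Sham 1, 2 and 3. Fibcd1, a marker of CA1 pyramidal cells, had 7.78, 8.59 and 1.996 FPKM in the tMCAO libraries, against 8.27, 2.93 and 8.68 FPKM in the Sham libraries, and Dsp and Lct were likewise lowest in tMCAO 3 and Sham 2. These genes were chosen after their values were seen, and they show that hippocampal markers were not alike in all 6 libraries. The counts of members and of listed genes below are therefore given with and without tMCAO 3 and Sham 2, and what these libraries contribute to a result was not tested further.

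A small number of TGF-beta and BMP genes changed after tMCAO, at several levels of the pathway. The follistatin-like protein Fstl1, the receptor-activated SMAD Smad1, the BMP targets Id1 and Id2 and the co-repressor Tgif1 were higher in tMCAO, while the BMP antagonist Nog and the latent binding protein Ltbp4 were lower. Of the 72 members, 70 were above 0 in some library and 58 were tested, while 8 had a mean below the filter of 0.5 FPKM and 6 were not in the comparison table. The 7 called were 12.1% of the 58 members tested, against 16.2% of all 17561 tested genes. The 5 higher members stood beside a background of 8.93% of all genes higher, and the 2 lower members beside 7.28% lower. The share of members called was thus below the background share, and the median log2 fold change was 0.00 over the tested members and 0.00 over all tested genes.

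Changes of the members were moderate in size. No member past the threshold reached an absolute log2 fold change of 1, which 1.36% of all tested genes did, and the highest absolute value was 0.83, for Nog. This count depends on the scale: with a pseudocount of 0.1 the log2 fold changes of Nog and Tgif1 were -1.05 and 1.15, and with voom on recovered reads they were -1.08 and 1.37. The median absolute log2 fold change was 0.17 for members and 0.19 for all tested genes. The groups did not overlap in 22 members, 12 with tMCAO above and 10 with tMCAO below, which is 37.9% of those tested against 43.4% of all tested genes. All 7 called members were among the 22, each with an exact two-sided permutation p of 0.10, the smallest that 3 libraries against 3 allow.

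The number called depended on the libraries used. Without tMCAO 3 and Sham 2, 11 of 58 members passed (19.0%), 8 higher and 3 lower, against 12.1% of all tested genes. Without tMCAO 1, tMCAO 2 or tMCAO 3, 3, 4 or 15 members passed, and the count over all tested genes was 1523, 2183 or 3896. Without Sham 1, Sham 2 or Sham 3, 1, 2 or 1 members passed, and the count over all tested genes was 124, 419 or 75, against 2847 with all libraries. Rescaling the libraries to an equal FPKM sum gave 4 higher and 4 lower members, with 1052 genes higher and 1596 lower among all genes, against 1569 higher and 1278 lower as deposited. In the authors' deposited table, 15 of 66 members (22.7%) had an adjusted p below 0.05, against 20.2% of all its genes.

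**Figure D1:**
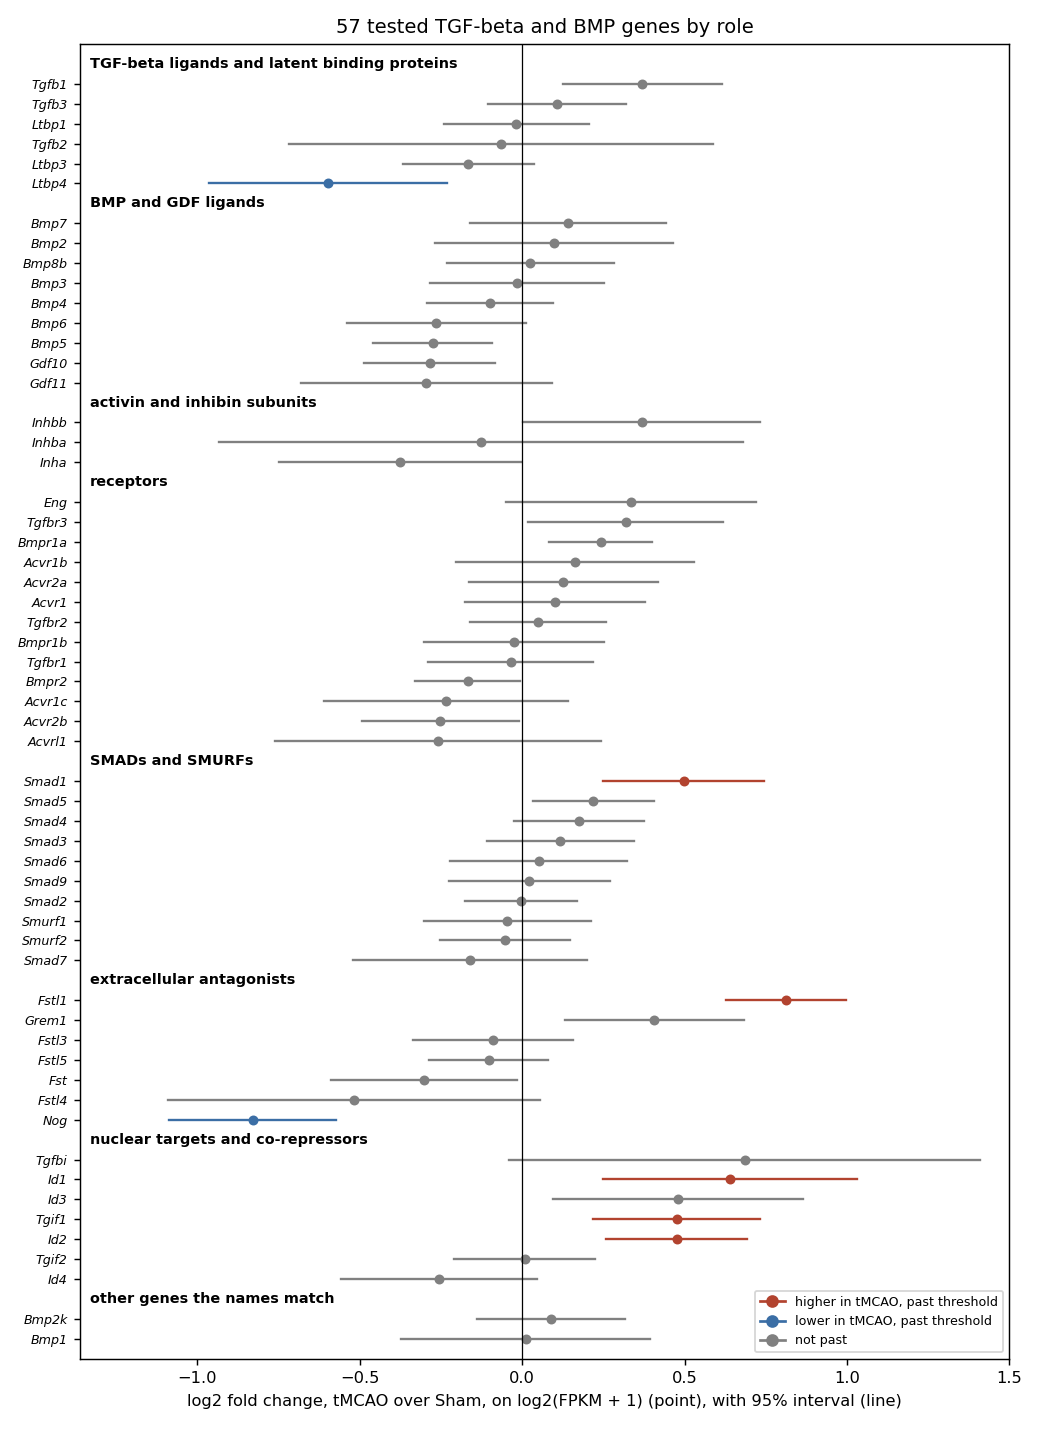
Log2 fold change (x axis, tMCAO over Sham on log2(FPKM + 1)) of 57 tested members (rows, grouped by role), with points for the estimate and lines for the 95% interval. Coloured points are the 5 members higher and the 2 lower in tMCAO past the threshold, and grey points are 50 others, with the receptors all grey.

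Promoter sequence from RefSeq (GRCm38.p6, the same assembly as mm10) was read for the members that moved, over the 250 bases before the start. Sequences were found for 54 of the 72 members, 5 of them called and 3 of those with 1 start in the table: Id2 (chr12:25096093-25096342, minus strand), Fstl1 (chr16:37776805-37777054, plus strand) and Smad1 (chr8:79399429-79399678, minus strand), all higher in tMCAO. All 3 windows lie wholly or partly inside the gene spans given below, which begin further upstream than the RefSeq starts. They are shown because they are the called members with a single RefSeq start, though the GENCODE spans place the start elsewhere. Both strands were searched for GTCTAGAC and CAGAC, known as SMAD3 and SMAD4 motifs, and for GGCGCC, a GC-rich motif of BMP SMADs, none of which contains another. Capitals mark a match.
Id2: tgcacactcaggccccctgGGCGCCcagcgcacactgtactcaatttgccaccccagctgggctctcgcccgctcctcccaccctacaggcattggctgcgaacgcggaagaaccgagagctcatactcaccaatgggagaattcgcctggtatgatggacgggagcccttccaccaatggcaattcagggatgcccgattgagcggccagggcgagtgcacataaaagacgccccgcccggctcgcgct
Fstl1: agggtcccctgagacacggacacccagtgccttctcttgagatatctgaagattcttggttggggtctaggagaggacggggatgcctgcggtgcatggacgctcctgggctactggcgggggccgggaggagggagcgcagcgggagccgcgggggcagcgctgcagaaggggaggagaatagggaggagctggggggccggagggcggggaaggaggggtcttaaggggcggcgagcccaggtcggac
Smad1: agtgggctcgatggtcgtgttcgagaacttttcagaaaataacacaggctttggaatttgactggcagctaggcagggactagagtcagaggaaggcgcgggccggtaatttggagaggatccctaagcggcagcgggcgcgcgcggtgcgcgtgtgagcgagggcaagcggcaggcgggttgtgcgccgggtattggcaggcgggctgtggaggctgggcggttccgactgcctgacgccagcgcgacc

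The Id2 window held GGCGCC, its first base 231 bases before the start, and the Fstl1 and Smad1 windows held none of the motifs. Of the called members with several starts, Ltbp4, which was lower in tMCAO, held GGCGCC in 2 of 3 windows, which overlap and hold the same site. Tgif1, which was higher, held CAGAC in 3 of 5. GGCGCC was in 14 of 70 windows of members (20%) and in 9.59% of all 32851 windows. CAGAC was in 37 of the 70 (52.9%) and in 42.2% of all. GTCTAGAC was in 0 of the 70 and in 0.167% of all. Several windows of a gene with more than 1 start overlap, and a match of letters is a description, not a binding site.

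TGF-beta ligands and their latent binding proteins came to 7 members, of which 6 were tested and 1, Ltbp4, passed. Ltbp4 (chr7:27305136-27337692, minus strand; here and below, GENCODE M21 gene spans on mm10) encodes a matrix protein that binds elastic fibres and the latent form of TGF-beta1. It had 4.71, 6.99 and 7.19 FPKM in tMCAO 1, 2 and 3, against 10.5, 10.6 and 8.71 FPKM in Sham 1, 2 and 3. Every tMCAO library lay below every Sham library, with tMCAO 1 the lowest. The means were 6.30 ± 1.38 FPKM in tMCAO and 9.93 ± 1.06 FPKM in Sham (SD, n = 3 each). This gave a log2 fold change of -0.60 (SE 0.15, 95% interval -0.96 to -0.23, limma adjusted p = 0.044). The call was lost without tMCAO 3 and Sham 2 (adjusted p = 0.074), and in each single-library omission other than that of tMCAO 3 (adjusted p 0.055 to 0.13).

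Tgfb1, the TGF-beta isoform best known from injury, had 1.67, 1.79 and 1.26 FPKM in the tMCAO libraries, against 0.955, 1.06 and 0.943 FPKM in the Sham libraries. Again there was no overlap, and the lowest tMCAO library was tMCAO 3. Its log2 fold change was 0.37 (95% interval 0.13 to 0.61), just short of the threshold (limma adjusted p = 0.052). It passed without tMCAO 3 and Sham 2 (adjusted p = 0.039) and without tMCAO 3 alone (adjusted p = 0.019). In the authors' deposited table, Tgfb1 had a log2 fold change, Sham over tMCAO, of -0.68 with adjusted p = 0.0045.

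The values of Tgfb2 moved with the libraries that stand apart. It had 4.02, 3.67 and 1.78 FPKM in tMCAO 1, 2 and 3, against 3.61, 2.09 and 4.22 FPKM in Sham 1, 2 and 3. tMCAO 3 and Sham 2, the libraries with the lowest choroid plexus sums, were the lowest for Tgfb2 as well. Its log2 fold change was -0.06, with a 95% interval of -0.72 to 0.59. Tgfb3 averaged 4.97 ± 0.576 FPKM in tMCAO and 4.53 ± 0.118 FPKM in Sham and has 12.4% of its exon length in common with overlapping genes. The binding proteins Ltbp1 and Ltbp3 had log2 fold changes of -0.02 and -0.17. Ltbp2 was under the filter, at 0.157 FPKM in tMCAO and 0.130 FPKM in Sham.

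**Figure D2:**
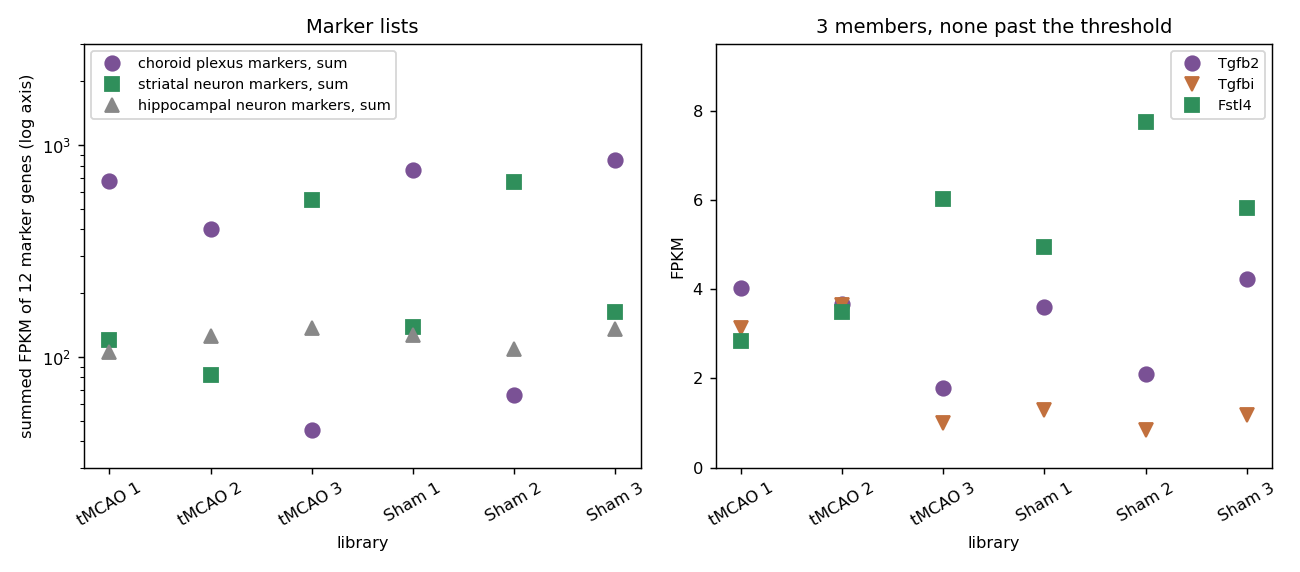
Left, summed FPKM (log axis) of striatal neuron, choroid plexus and hippocampal neuron markers in each library (x axis); right, FPKM of the members Tgfb2, Tgfbi and Fstl4 in the same libraries. tMCAO 3 and Sham 2 hold the highest striatal sums, 552 and 668 FPKM, and the lowest Tgfb2 values, 1.78 and 2.09 FPKM, and Sham 2 the highest Fstl4 value, 7.74 FPKM.

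The BMP and GDF ligands were the most numerous group, with 20 members. Of these, 9 were tested and 0 passed the limma threshold, while 1, Bmp5, passed with voom. Unadjusted limma p was below 0.05 for 2 of the 9, beside 20 of all 58 tested members. The share of all tested genes under that unadjusted p was not counted, so such counts here and below are not read as changes. The tested ligands had mean FPKM between 0.657 and 3.94 over the 6 libraries. Bmp5 came closest, with 0.534, 0.518 and 0.446 FPKM in the tMCAO libraries, against 0.857, 0.758 and 0.829 FPKM in the Sham libraries. Its groups did not overlap (log2 fold change -0.28, limma adjusted p = 0.053), but 46.7% of the exon length of Bmp5 is shared with Gm26903 on the other strand, so its reads are uncertain. Gdf10, a ligand also called BMP3b, had 1.22, 1.06 and 0.937 FPKM in the tMCAO libraries, against 1.45, 1.58 and 1.54 FPKM in the Sham libraries. Here too the groups did not overlap (log2 fold change -0.28, limma adjusted p = 0.063). In the authors' deposited table, Bmp5 and Gdf10 passed with adjusted p of 0.0090 and 0.019, both lower in tMCAO.

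The remaining tested ligands showed no difference past the threshold. Gdf11, a ligand close to myostatin, averaged 3.44 ± 0.755 FPKM in tMCAO and 4.44 ± 0.846 FPKM in Sham. Bmp6 averaged 2.10 ± 0.371 FPKM in tMCAO and 2.72 ± 0.297 FPKM in Sham. Both had overlapping groups. Bmp7, found in meninges and choroid plexus, averaged 2.97 ± 0.643 FPKM in tMCAO and 2.58 ± 0.181 FPKM in Sham. Bmp2, Bmp3, Bmp4 and Bmp8b had log2 fold changes from -0.10 to 0.10.

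Gdf15, a stress-induced cytokine of the family, was under the filter on low values. It had 0.415, 0.572 and 0.0936 FPKM in the tMCAO libraries, against 0.0411, 0.0654 and 0.0707 FPKM in the Sham libraries. These rest on 117 recovered reads in tMCAO and 14 in Sham, and tMCAO 3 lay just above the Sham libraries. With no filter its limma adjusted p was 0.11, whereas the authors' deposited table gave a log2 fold change, Sham over tMCAO, of -2.60 with adjusted p = 0.0070. Gdf5 had 0.738, 0.133 and 0.278 FPKM in the tMCAO libraries, against 0.186, 0.146 and 0.103 FPKM in the Sham libraries, with overlapping groups and 40.3% of its exon length shared with Gm15557. Gdf7, Gdf9, Bmp8a and Bmp15 were in the comparison table under the filter, each with group means at or below 0.444 FPKM. Bmp10, Gdf2 and Gdf6 were not in the comparison table and had at most 17 recovered reads in a group. Gdf1 and Gdf3 were listed at 0 in every library. Gdf1 shares 100% of its exon length with Cers1, so reads of this transcript may stand under the other name.

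Activin and inhibin subunits numbered 5, of which 3 were tested and 0 passed the limma threshold or voom. Unadjusted limma p was below 0.05 for 2 of the 3, beside 20 of all 58 tested members. Inha, the inhibin alpha subunit, was the most abundant, with 10.9, 12.2 and 16.4 FPKM in the tMCAO libraries, against 16.0, 19.9 and 15.8 FPKM in the Sham libraries. The groups overlapped through tMCAO 3 (log2 fold change -0.38, adjusted p = 0.14), and without tMCAO 3 and Sham 2 Inha passed as lower (adjusted p = 0.038). Inhba, the activin A subunit induced by neuronal activity, had 3.86, 1.24 and 1.17 FPKM in the tMCAO libraries, against 1.5, 3.20 and 1.93 FPKM in the Sham libraries. tMCAO 1 and Sham 2 were the highest, the groups overlapped, and the 95% interval of the log2 fold change was -0.93 to 0.68. Inhbb averaged 1.81 ± 0.429 FPKM in tMCAO and 1.18 ± 0.309 FPKM in Sham (adjusted p = 0.14). Inhbe, at 0.0357 FPKM in tMCAO and 0.0699 FPKM in Sham, was under the filter, and Inhbc, with 5 reads in tMCAO and 17 in Sham, was not in the comparison table.

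Of the 13 receptors 0 passed the limma threshold or voom. Unadjusted limma p was below 0.05 for 4 of the 13, on either side of 0, beside 20 of all 58 tested members. Their log2 fold changes ran from -0.26 to 0.34, with a median of 0.05. Bmpr1a, a type I BMP receptor, came closest, with 11.8, 11.8 and 11.5 FPKM in the tMCAO libraries, against 10.3, 9.55 and 9.39 FPKM in the Sham libraries. Its groups did not overlap, and the log2 fold change was 0.24 (95% interval 0.08 to 0.40, adjusted p = 0.052). Bmpr1a passed with a mean FPKM of at least 2, with library weights and without tMCAO 3 (limma adjusted p of 0.046, 0.029 and 0.048). It also passed as higher in tMCAO in the authors' deposited table (adjusted p = 0.047). Bmpr2, the type II BMP receptor, lay the other way, with 9.84, 9.96 and 10.7 FPKM in the tMCAO libraries, against 11.5, 11.2 and 12.0 FPKM in the Sham libraries. The groups did not overlap either (log2 fold change -0.17, adjusted p = 0.13).

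The TGF-beta receptors showed small differences. Tgfbr1, the type I receptor, averaged 4.18 ± 0.420 FPKM in tMCAO and 4.32 ± 0.555 FPKM in Sham. Tgfbr2, the type II receptor, averaged 2.68 ± 0.145 FPKM in tMCAO and 2.56 ± 0.274 FPKM in Sham. The 95% intervals of their log2 fold changes were -0.29 to 0.22 and -0.16 to 0.26. The co-receptor Tgfbr3, also called betaglycan, averaged 2.96 ± 0.293 FPKM in tMCAO and 2.20 ± 0.464 FPKM in Sham (adjusted p = 0.12). The endothelial co-receptor Eng had 5.21, 7.85 and 4.67 FPKM in the tMCAO libraries, against 4.29, 4.41 and 4.41 FPKM in the Sham libraries. All tMCAO libraries were above all Sham libraries, with tMCAO 2 far above the rest (adjusted p = 0.18). Acvrl1, the endothelial type I receptor ALK-1, had 1.7, 3.17 and 2.96 FPKM in the tMCAO libraries and 2.66, 4.39 and 2.86 FPKM in the Sham libraries, with overlapping groups. Endothelial markers moved both ways, 2 of 12 higher and 4 of 12 lower in tMCAO, with sums of 56.7 to 77.8 FPKM in tMCAO and 62.8 to 67.0 FPKM in Sham, and their part in these values was not tested. Without tMCAO 3 and Sham 2, 3 of the endothelial markers were higher and 1 was lower.

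Acvr1b, the activin type I receptor ALK-4, was the most abundant receptor, with 30.4, 31.3 and 45.8 FPKM in the tMCAO libraries and 30.5, 33.2 and 30.5 FPKM in the Sham libraries. tMCAO 3 and Sham 2, the libraries high in striatal markers, were its highest of each group. The type II activin receptors Acvr2a and Acvr2b averaged 15.1 ± 0.284 and 1.18 ± 0.200 FPKM in tMCAO, against 13.9 ± 2.44 and 1.59 ± 0.180 FPKM in Sham. Acvr1, Acvr1c and Bmpr1b had log2 fold changes of 0.10, -0.23 and -0.03.

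Among the SMADs and SMURFs, 1 of 10 tested members passed. Smad1 (chr8:79338395-79399518, minus strand), which carries BMP signals to the nucleus, had 6.38, 5.01 and 4.87 FPKM in tMCAO 1, 2 and 3, against 3.62, 3.41 and 3.54 FPKM in Sham 1, 2 and 3. Every tMCAO library was above every Sham library, and the Sham values lay close together. The means were 5.42 ± 0.834 FPKM in tMCAO and 3.52 ± 0.102 FPKM in Sham (SD, n = 3 each). Its log2 fold change was 0.50 (SE 0.10, 95% interval 0.25 to 0.75, limma adjusted p = 0.027). The call was lost without Sham 1, 2 or 3 (adjusted p 0.089 to 0.10) and without both tMCAO 3 and Sham 2 (adjusted p = 0.051).

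The other BMP SMADs did not pass. Smad5 had 6.45, 6.49 and 5.74 FPKM in the tMCAO libraries, against 5.15, 5.49 and 4.98 FPKM in the Sham libraries. The groups did not overlap, and the log2 fold change was 0.22 (95% interval 0.03 to 0.41, limma adjusted p = 0.097). Smad9 averaged 4.26 ± 0.448 FPKM in tMCAO and 4.18 ± 0.472 FPKM in Sham. The difference of Smad1 from Smad5 or Smad9 was not tested.

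The SMADs of the TGF-beta and activin branch lay close to 0. Smad2 averaged 7.01 ± 0.314 FPKM in tMCAO and 7.03 ± 0.344 FPKM in Sham, with a 95% interval of the log2 fold change of -0.17 to 0.17. Smad3 averaged 14.4 ± 1.65 FPKM in tMCAO and 13.2 ± 0.794 FPKM in Sham. The shared partner Smad4 averaged 11.7 ± 1.06 FPKM in tMCAO and 10.2 ± 0.538 FPKM in Sham, with no overlap of the groups (adjusted p = 0.18). The inhibitory Smad7 averaged 4.10 ± 1.06 FPKM in tMCAO and 4.62 ± 0.312 FPKM in Sham, and Smad6 had a log2 fold change of 0.05. Smurf1 and Smurf2, which mark receptors and SMADs for degradation, both had log2 fold changes of -0.05.

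On the log2(FPKM + 1) scale, the largest rise and the largest fall among the called members were in 2 extracellular antagonists, while with a pseudocount of 0.1 or with voom the rise of Tgif1 was larger than that of Fstl1. Of 8 tested, Fstl1 was higher, Nog was lower and 6 did not pass. Fstl1 (chr16:37776873-37836514, plus strand) encodes a secreted glycoprotein that was found as a TGF-beta-induced gene and is reported to dampen BMP signalling. It had 13.7, 12.9 and 12.9 FPKM in tMCAO 1, 2 and 3, against 6.97, 6.53 and 7.70 FPKM in Sham 1, 2 and 3. The libraries of each group lay close together, with a wide gap between the groups. The means were 13.1 ± 0.480 FPKM in tMCAO and 7.07 ± 0.590 FPKM in Sham (SD, n = 3 each). This difference was a log2 fold change of 0.81 (SE 0.078, 95% interval 0.63 to 1.0, limma adjusted p = 0.0057). Fstl1 passed in all 18 alternatives, with an adjusted p of 0.014 without tMCAO 3 and Sham 2 and at most 0.039 with any single library left out.

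Nog (chr11:89300638-89302332, minus strand) encodes noggin, which binds BMPs and keeps them from their receptors. It had 2.67, 2.25 and 1.99 FPKM in tMCAO 1, 2 and 3, against 5.18, 5.11 and 4.30 FPKM in Sham 1, 2 and 3. Every tMCAO library was below every Sham library. The means were 2.30 ± 0.344 FPKM in tMCAO and 4.86 ± 0.490 FPKM in Sham (SD, n = 3 each). The log2 fold change was -0.83 (SE 0.11, 95% interval -1.09 to -0.57, limma adjusted p = 0.011). Nog passed without tMCAO 3 and Sham 2 (adjusted p = 0.030) and was lost without Sham 1 or Sham 3 (adjusted p of 0.056 and 0.051). In bulk tissue, fewer cells that make a transcript and less of it per cell cannot be told apart.

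**Figure D3:**
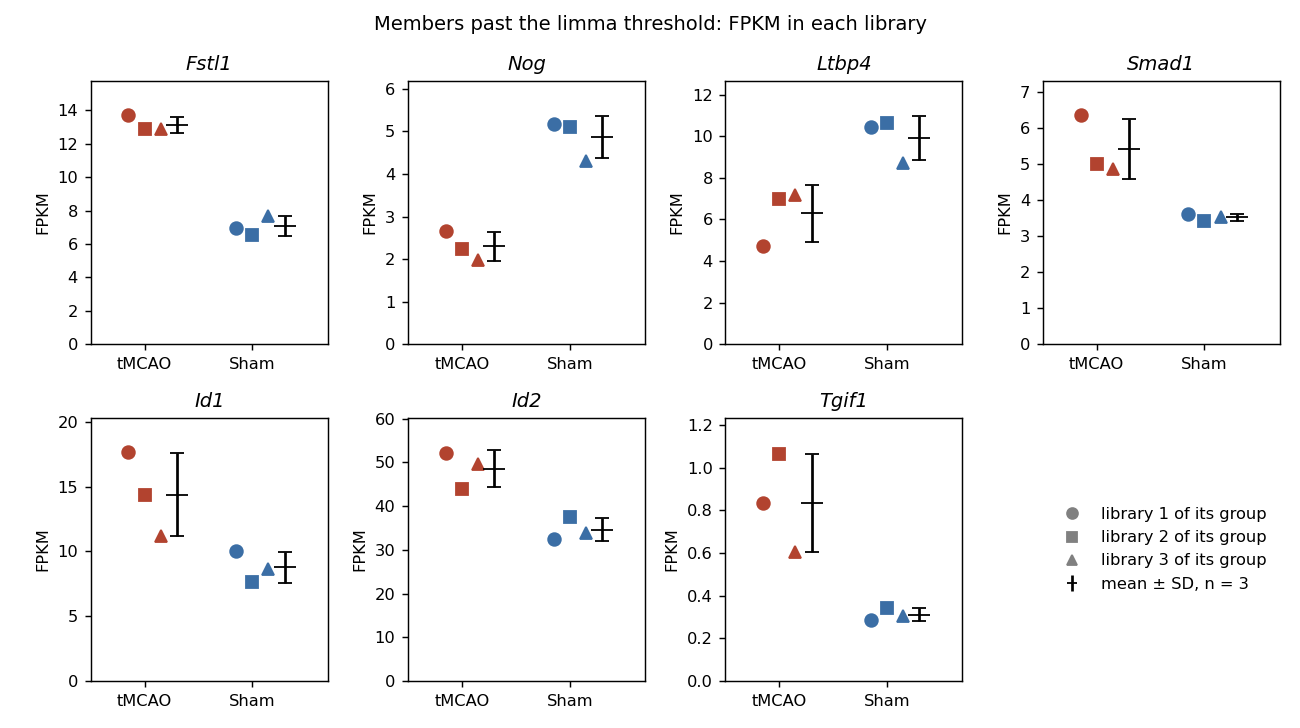
FPKM (y axis, from 0) of the 7 members past the threshold in each tMCAO and Sham library (x axis), with symbols for the library number and bars for mean ± SD, n = 3. In all 7 panels the groups do not overlap; Nog and Ltbp4 lie lower in tMCAO and the other 5 higher.

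The other antagonists did not pass. Grem1, a BMP antagonist of the DAN family, had 1.76, 1.51 and 1.11 FPKM in the tMCAO libraries, against 0.770, 0.829 and 0.936 FPKM in the Sham libraries. The groups did not overlap (log2 fold change 0.41, limma adjusted p = 0.056), and Grem1 passed without tMCAO 3 and Sham 2 (adjusted p = 0.045). Grem1 also passed as higher in tMCAO in the authors' deposited table (adjusted p = 0.0050). Fst, the activin-binding follistatin, averaged 0.644 ± 0.0902 FPKM in tMCAO and 1.04 ± 0.303 FPKM in Sham (adjusted p = 0.12).

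Fstl4 had 2.84, 3.50 and 6.01 FPKM in the tMCAO libraries, against 4.95, 7.74 and 5.81 FPKM in the Sham libraries. Within each group the library high in striatal markers was the highest. Its log2 fold change was -0.52 (adjusted p = 0.17), and it passed as lower without tMCAO 3 and Sham 2 (adjusted p = 0.042). Fstl5 averaged 2.88 ± 0.177 FPKM in tMCAO and 3.17 ± 0.123 FPKM in Sham. Fstl3, with 47.3% of its exon length shared with Prss57, had a log2 fold change of -0.09.

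The ID and TGIF members and Tgfbi, a target whose protein is secreted, had the highest count of calls of the groups by role. Of the 7 tested, 3 were higher and none lower, beside 8.93% of all tested genes higher. The median log2 fold change of these 7 was 0.48, against 0.00 over all tested genes. Id2 (chr12:25093799-25097140, minus strand) encodes a helix-loop-helix protein without a DNA-binding domain that blocks differentiation factors, and was the most abundant of the 58 tested members. It had 52.1, 43.9 and 49.6 FPKM in tMCAO 1, 2 and 3, against 32.5, 37.5 and 33.8 FPKM in Sham 1, 2 and 3. All tMCAO libraries were above all Sham libraries. The means were 48.5 ± 4.21 FPKM in tMCAO and 34.6 ± 2.62 FPKM in Sham (SD, n = 3 each). The log2 fold change was 0.48 (SE 0.091, 95% interval 0.26 to 0.69, limma adjusted p = 0.022). Id2 passed without tMCAO 3 and Sham 2 (adjusted p = 0.037) and was lost without tMCAO 1, Sham 1, Sham 2 or Sham 3 (adjusted p 0.050 to 0.097).

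Id1 (chr2:152736251-152737410, plus strand), a direct target of BMP SMADs, had 17.6, 14.3 and 11.2 FPKM in tMCAO 1, 2 and 3, against 10.03, 7.66 and 8.65 FPKM in Sham 1, 2 and 3. The groups did not overlap, with tMCAO 3 nearest to Sham. The means were 14.4 ± 3.22 FPKM in tMCAO and 8.78 ± 1.19 FPKM in Sham (SD, n = 3 each). The log2 fold change was 0.64 (SE 0.17, 95% interval 0.25 to 1.03, limma adjusted p = 0.044). The adjusted p was 0.032 without tMCAO 3 and Sham 2, 0.015 without tMCAO 3, and 0.086 to 0.14 with any other library left out. It was 0.060 with an equal FPKM sum, 0.053 with quantile normalization and 0.062 with voom on recovered reads, so the call rests close to the threshold.

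Id3 had a pattern like that of Id1. It had 15.8, 13.5 and 9.88 FPKM in tMCAO 1, 2 and 3, against 9.90, 8.10 and 8.83 FPKM in Sham 1, 2 and 3. tMCAO 3 lay just below Sham 1, so the groups overlapped (log2 fold change 0.48, limma adjusted p = 0.084). Id3 passed without tMCAO 3 and Sham 2 (limma adjusted p = 0.034) and, as higher in tMCAO, in the authors' deposited table (adjusted p = 0.026). Id4, which lay the other way, had 18.9, 17.9 and 16.2 FPKM in the tMCAO libraries, against 19.0, 25.9 and 19.5 FPKM in the Sham libraries. The groups did not overlap, by a narrow margin, and Sham 2 was far above the other libraries (log2 fold change -0.26, adjusted p = 0.19).

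Tgif1 (chr17:70844205-70853546, minus strand), a homeobox co-repressor of SMAD2 and SMAD3, had low levels of 0.832, 1.06 and 0.605 FPKM in tMCAO 1, 2 and 3, against 0.284, 0.344 and 0.306 FPKM in Sham 1, 2 and 3. These rest on 268, 350 and 216 recovered reads in the tMCAO libraries and on 63, 80 and 79 in the Sham libraries. All tMCAO libraries were above all Sham libraries. The means were 0.834 ± 0.229 FPKM in tMCAO and 0.312 ± 0.0305 FPKM in Sham (SD, n = 3 each). The log2 fold change was 0.48 (SE 0.11, 95% interval 0.22 to 0.73, limma adjusted p = 0.032). With voom on recovered reads, which adds no FPKM pseudocount, it was 1.37. Tgif1 passed without tMCAO 3 and Sham 2 (adjusted p = 0.034) and without tMCAO 3 (adjusted p = 0.015), and was lost with any other library left out (adjusted p 0.058 to 0.12). Tgif2 had a log2 fold change of 0.01 and overlaps 5430405H02Rik over 61.6% of its exon length.

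Tgfbi, a secreted matrix protein named for its induction by TGF-beta, had 3.13, 3.64 and 0.998 FPKM in tMCAO 1, 2 and 3, against 1.298, 0.841 and 1.18 FPKM in Sham 1, 2 and 3. tMCAO 1 and tMCAO 2 were far above the Sham libraries, while tMCAO 3 lay among them. The log2 fold change was 0.68 with a wide 95% interval of -0.04 to 1.41 (limma adjusted p = 0.16). Without tMCAO 3 the log2 fold change was 1.06 with adjusted p = 0.0077, and without both tMCAO 3 and Sham 2 it was 0.97 with adjusted p = 0.015. The authors' deposited table gave Tgfbi a log2 fold change, Sham over tMCAO, of -1.23 with adjusted p = 0.010. Monocyte and macrophage markers summed to 13.3, 16.0 and 10.6 FPKM in tMCAO 1, 2 and 3, against 10.1, 7.80 and 9.10 FPKM in the Sham libraries, with 2 of 6 tested higher, and 1 without tMCAO 3 and Sham 2. Ly6c2, Plac8 and Ms4a7 of that list were under 0.1 FPKM in all libraries, and its part in the Tgfbi values was not tested.

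The name rule also matched Bmp1, a metalloprotease that cleaves procollagen and chordin, and Bmp2k, a kinase outside the pathway. Bmp1 averaged 7.59 ± 1.77 FPKM in tMCAO and 7.42 ± 0.746 FPKM in Sham. Bmp2k averaged 2.84 ± 0.329 FPKM in tMCAO and 2.61 ± 0.211 FPKM in Sham, and neither passed.

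Markers of other cell types moved between the groups as well. Of 12 astrocyte markers 4 were higher in tMCAO, with sums of 909, 889 and 725 FPKM in tMCAO 1, 2 and 3 and 715, 700 and 742 FPKM in Sham 1, 2 and 3. Of 12 microglial markers 7 were lower, with sums of 99.9 to 128 FPKM in tMCAO and 139 to 162 FPKM in Sham. Of 11 pericyte and smooth muscle markers tested 2 were lower, and of 10 fibroblast and meningeal markers 1 was higher and 2 were lower. Of 10 oligodendrocyte precursor markers 3 were lower, and of 10 oligodendrocyte markers 1. Without tMCAO 3 and Sham 2, the same 4 astrocyte markers were higher, while 4 microglial and 1 pericyte and smooth muscle markers were lower. Among fibroblast and meningeal markers 1 was then higher and 1 lower, 1 oligodendrocyte precursor and 2 oligodendrocyte markers were lower, and 3 choroid plexus and 5 striatal markers were lower. Neutrophil markers summed to 35.4 FPKM in tMCAO 1 and to 2.11 to 5.32 FPKM in the other libraries. The part of these markers in the values of Fstl1, Nog, Id1, Id2, Smad1, Tgif1 and Ltbp4 was not tested.

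Both libraries that stand apart fell among the 2 highest or the 2 lowest in 13 of the 58 tested members (22.4%), against 18.5% of all tested genes. Both were lowest for Tgfb2, Tgfbi, Smad6 and Bmp2k. Both were highest for Acvr1b, Bmp2, Bmp3, Fstl3, Fstl4, Inha, Ltbp1, Smurf1 and Smurf2.

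**Figure D4:**
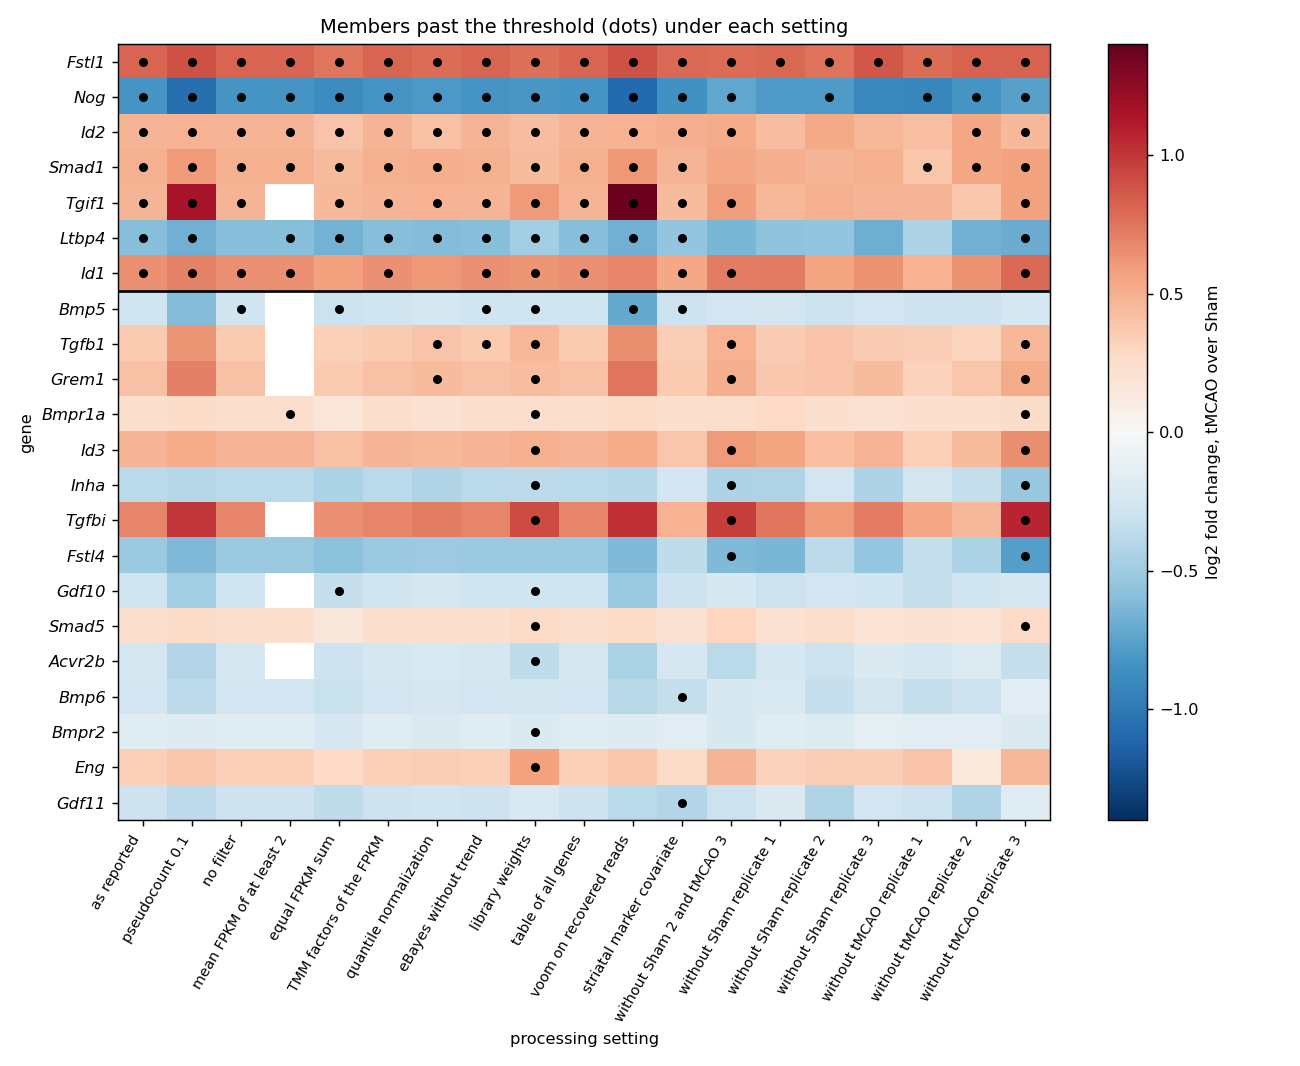
Log2 fold change (colour, tMCAO over Sham) of the 7 called members (above the line) and 15 others that passed under some setting (below it), with a column for each processing setting, dots where the adjusted p is below 0.05 and white where the gene was not tested. Only Fstl1 has a dot in every column, and the column of library weights and that without tMCAO 3 hold the most dots.

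Other genes of the pathway, outside the 72, were read in lists from the same fit. Of 12 tested genes that hold or release latent TGF-beta, 5 were higher and none lower, and 4 were higher without tMCAO 3 and Sham 2. Across the pathway lists these counts stand beside 8.93% of all tested genes higher and 7.28% lower. Lrrc32, the GARP protein that holds latent TGF-beta on the cell surface, averaged 4.44 ± 0.823 FPKM in tMCAO and 1.09 ± 0.0222 FPKM in Sham (log2 fold change 1.37, limma adjusted p = 0.0053). Its relative Nrros, which holds latent TGF-beta1 on microglia, averaged 2.23 ± 0.202 FPKM in tMCAO and 1.47 ± 0.197 FPKM in Sham (log2 fold change 0.39, adjusted p = 0.040). Plat, tissue plasminogen activator, and Mmp14, a membrane-bound metalloprotease, had log2 fold changes of 1.15 and 0.61 (adjusted p of 0.013 and 0.018). Nrros lost its call without tMCAO 3 and Sham 2 (limma adjusted p = 0.070). Lrrc32 held its call in each single-library omission (adjusted p up to 0.038). Plat, Mmp14 and Nrros did not hold theirs in every such omission (adjusted p up to 0.058, 0.082 and 0.14).

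Further BMP antagonists and modulators gave 3 higher and none lower of 12 tested, and 1 higher and 1 lower without tMCAO 3 and Sham 2. Htra1, a secreted serine protease reported to restrain TGF-beta family signals, had 79.7, 78.4 and 81.2 FPKM in the tMCAO libraries, against 38.0, 40.8 and 40.3 FPKM in the Sham libraries. The libraries of each group lay close together, as for Fstl1 (log2 fold change 0.99, limma adjusted p = 0.0023, and at most 0.020 with any library left out). Nbl1 and Twsg1, which bind BMPs, had log2 fold changes of 0.41 and 0.27 (adjusted p of 0.035 and 0.044), and neither passed without tMCAO 3 and Sham 2. Of 8 co-receptors, 1 was higher: Lrg1, a secreted partner of endoglin, averaged 4.06 ± 0.106 FPKM in tMCAO and 1.36 ± 0.664 FPKM in Sham (log2 fold change 1.13, adjusted p = 0.016, and 0.044 without tMCAO 3 and Sham 2). Of other ligands, 1 was tested and did not pass.

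Inside the cell, calls went both ways. Of 21 SMAD cofactors and regulators, 2 were higher and 3 lower, and 2 were higher and 1 lower without tMCAO 3 and Sham 2. Tob2, an antiproliferative protein, averaged 10.3 ± 0.633 FPKM in tMCAO and 5.46 ± 0.222 FPKM in Sham (log2 fold change 0.80, limma adjusted p = 0.0053), and Strap, a receptor-associated inhibitor, had a log2 fold change of 0.39 (adjusted p = 0.044). Usp15, a deubiquitinase of SMADs, and Zeb2, a SMAD-binding repressor, had log2 fold changes of -0.29 and -0.41 (adjusted p of 0.036 and 0.047), and both lost the call without tMCAO 3 and Sham 2 (adjusted p of 0.075 and 0.095). Of 12 SMAD-independent kinases, 1 was higher: Map2k3, which activates p38, averaged 5.68 ± 0.485 FPKM in tMCAO and 2.96 ± 0.315 FPKM in Sham (log2 fold change 0.76, adjusted p = 0.010, and 0.025 without tMCAO 3 and Sham 2).

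Known targets differed in number between the lists, though the difference between the lists was not tested. Of 28 tested TGF-beta target genes 11 were higher and none lower, beside 8.93% of all tested genes higher, and 8 of the 34 genes listed are also cell type markers. Without tMCAO 3 and Sham 2 there were again 11, of which 10 were shared. With single libraries left out, Cdkn1a, Timp1 and Plaur held their call in every fit, and each of the other 8 lost it in at least 1. Plaur, the urokinase receptor, averaged 5.19 ± 1.46 FPKM in tMCAO and 0.283 ± 0.0313 FPKM in Sham (log2 fold change 2.24, limma adjusted p = 0.0030). Col4a1, a basement membrane collagen, averaged 13.2 ± 1.36 FPKM in tMCAO and 7.67 ± 0.304 FPKM in Sham (log2 fold change 0.71, adjusted p = 0.010). The cell cycle inhibitor Cdkn1a and the protease inhibitor Timp1 were the other genes of the list with the smallest adjusted p (0.0023 and 0.0037). Of 15 tested BMP targets besides the members, 1 was higher, the astrocyte filament gene Gfap (adjusted p = 0.022), which is also an astrocyte marker and passed without tMCAO 3 and Sham 2 as well (adjusted p = 0.0039). The targets in both lists respond to other signals too, so their counts are no measure of SMAD activity.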

How the data were processed

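Gene levels of 3 tMCAO and 3 Sham libraries were analysed. The authors deposited FPKM per gene in a table of 53465 genes and in a comparison table of 22647 genes, on build mm10 per the submitters' processing notes. The comparison table also holds log2 fold changes and p-values of the authors' deposited comparison, signed Sham over tMCAO. The aligner, counter and strand setting are not given in the labels, so antisense overlaps cannot be separated. tMCAO 1 to 3 are numbers of the columns.

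The 17561 genes with mean FPKM of at least 0.5 entered limma 3.58.1 (R 4.3.3) on log2(FPKM + 1), with a mean-variance trend, two-sided tests and Benjamini-Hochberg adjustment over all of them. The simulated test of this fit is kept with the tables. Of the 36452 genes above 0, 100% had values that were whole multiples of 1 read (tolerance 1e-12), which gave the recovered reads. A gene above 0 in only 1 library passes this check in any case. Of the 30195 genes above 0 in 3 or more libraries, 100% passed as well. GENCODE M21 exon lengths set the size of a read's step for 92.9% of 24507 genes, and elsewhere the smallest whole numbers were used, so totals are minima. Voom on those reads called 2651 genes. A recovered unit may be a read or a pair, and the number of units limits the precision of low genes.

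Members came from a name rule. Members, gene lists (8 of pathway genes, 12 of cell type markers), tests and alternatives were chosen with earlier results of these data known. Every called member is named with all its values, others by means or ranges, and at most 4 called genes of each pathway list by smallest adjusted p. The single result of 1 member is not reported here, while counts include it. Alternatives were another pseudocount (0.1), no filter, mean FPKM of at least 2, equal sums, TMM factors, quantile normalization, no trend, library weights, the table of all genes, voom, a striatal marker covariate, and leaving out each library or both tMCAO 3 and Sham 2.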

Additional observations from a re-analysis of the deposited data

How the results depend on the processing

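Of the single-member results under the 18 alternatives, 959 kept their side of the threshold, 30 lost a call, 39 gained one and 0 of those with a call reversed. Library weights gave 4913 genes and 20 members (12 higher, 8 lower), against 2847 genes and 7 members (5 higher, 2 lower) as reported. Without tMCAO 3 and Sham 2, 11 members passed (8 higher, 3 lower), beside 2121 of all tested genes (1227 higher, 894 lower). An equal FPKM sum gave 4 lower members, beside 1596 lower genes among all tested. The striatal marker covariate gave 5 lower members, beside 1853 lower genes. As reported, there were 2 lower members and 1278 lower genes. The cause of these changes was not tested. With each library left out in turn, all genes past the threshold ranged from 75 to 3896, members from 1 to 15, higher members from 1 to 11 and lower members from 0 to 4, the fewest without a Sham library and the most without tMCAO 3. Each of these fits had fewer degrees of freedom, and what this contributes to the counts was not tested. Ltbp4 also lost its call with no filter (limma adjusted p = 0.050), and Tgif1 was not tested at a mean FPKM of at least 2. Low members such as Gdf15, at 14 reads over the Sham libraries, are limited by depth. No paired analysis was possible because the labels do not pair the samples: their titles are numbered in a row across both groups, and the numbers 1 to 3 used here only name libraries.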
